A study of Mus musculus with 221 samples.

Results

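Proteasome genes were followed across hemogenic endothelium (HE) and its early blood progeny in the mouse embryo. Members were all genes whose symbol starts with Psma, Psmb, Psmc, Psmd, Psme, Psmf or Psmg, with at least 1 transcript annotated as protein_coding and without the pseudogene mark "-ps". The rule used names only and found 51 of the 78317 genes in the annotation. Not all of them encode subunits. Psmg1 to Psmg4, Psmd5, Psmd9 and Psmd10 are assembly chaperones, Psmf1 (PI31) is a regulator, Psmc3ip is a recombination factor of meiosis and Psme3ip1 is a partner of the activator Psme3. Of the 51 members, 48 had at least 50 counts over all cells, and 3 did not. These were Psmb9 with 36 counts, Psma2 with 2 counts and Psmb11, the thymus-specific beta subunit, with 0. Together the members held 0.886% of all counts.

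Each sample was 1 sorted cell sequenced with long nanopore reads. Of the 221 cells, 208 had at least 17595 counts and were used, with totals of 18131 to 125339. All embryos came from C57BL/6JOlaHsd males and CD-1 females and carried the Gfi1-GFP reporter, the Runx1b-RFP reporter or both, without treatment. HE AGM was made up of clusters c3 (29 cells, early) and c4 (20 cells, late) from the aorta-gonad-mesonephros (AGM) region, and c5 (21 cells, labelled HE-Hb) held cells that the study places in the blood clusters inside the aorta, although its tissue label says mouse embryo only. In the yolk sac (YS), HE YSA was the arterial HE of clusters a1 (23 cells) and a2 (29 cells), and HE YSP was the plexus HE of clusters b2 (25 cells) and b3 (24 cells). Clusters p1 (17 cells) and p2 (20 cells) were YS progenitors skewed to lymphomyeloid and erythromyeloid fates. AGM cells were sorted as KIT-, CDH5+ and YS cells as KIT+, CD31+, both RUNX1+, GFI1+ or GFI1-, CD41- and CD45-, at E9.5 and E10.5 in the AGM and at E9, E9.5 and E10.5 in the YS. The cells' own labels give a stage for all but 1 of the YS cells used and for only 1 of the AGM cells. The clusters were drawn by the study from short reads of the same amplified cDNA. The cDNA of the AGM cells and of the YS cells was made in separate projects except for 1 cell of a1, so tissue and cDNA project cannot be told apart. Another 2 YS cells have AGM in their library names, and without these 3 cells the members' median ratio of HE AGM over HE YSA (given below) was -0.32 in place of -0.33. The labels name no embryo, so every cluster is 1 sample. No test between clusters was made, and intervals are 95% exact intervals that cover counting error only, since reads of amplified cDNA without molecular identifiers are not independent molecules. Levels are given as CPM, the counts of a gene scaled to a total of 1000000 for the cell or cluster.

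The proteasome is the large protease that degrades ubiquitin-tagged proteins. Its barrel, the 20S core, is built from rings of alpha subunits (Psma genes) and beta subunits (Psmb genes), and the beta subunits Psmb5, Psmb6 and Psmb7 cut the protein chain. Immune cells and cells exposed to interferon replace these with the inducible subunits Psmb8, Psmb9 and Psmb10, which gives the immunoproteasome. The 19S cap has a ring of ATPases (Psmc genes) that unfold the substrate and a base and lid of other subunits (Psmd genes) that bind and remove ubiquitin. The activators Psme1 and Psme2 (PA28 alpha and beta), Psme3 (PA28 gamma, nuclear) and Psme4 (PA200) open the core without the 19S cap.

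Some proteasome genes have similar copies elsewhere in the genome, mostly intronless pseudogenes, and for several the counts are split between gene and copy. Transcripts of 16 members matched those of 36 other annotated genes over at least 400 bases at 85% identity or more, and 35 members had no such look-alike. Some look-alikes, such as Gm4118 of Psma2, held 0 counts. For 4 members a look-alike held more counts than the gene itself. The alpha subunit Psma2 had 2 counts in all cells, and the processed pseudogene Gm6474 had 5292. Psmb5, the chymotrypsin-like beta subunit, had 267 counts and Gm3375 had 5261. Psmb1 had 1172 counts and Gm14830 had 2797, and the lid subunit Psmd11 had 743 counts and Gm14048 had 1227. Psmb6 (2743 counts) was close to its copy Psmb6-ps2 (2631 counts). The coding stretches below show how near the copies are. They are read from GRCm38 with the GENCODE M21 annotation, 90 bases each, counted from the start codon of the gene, and capitals mark bases that differ between gene and copy.
Psma2 (chr13:14613240-14674236, + strand): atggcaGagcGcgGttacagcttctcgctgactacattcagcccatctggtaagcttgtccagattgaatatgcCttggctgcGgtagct
Gm6474 (chr13:61687282-61687980, - strand): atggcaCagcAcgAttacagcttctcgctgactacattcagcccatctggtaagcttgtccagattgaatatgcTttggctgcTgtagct
Psmb5 (chr14:54614119-54618022, - strand): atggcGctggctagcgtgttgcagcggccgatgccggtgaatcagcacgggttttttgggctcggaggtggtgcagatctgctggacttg
Gm3375 (chr7:3181093-3181888, + strand): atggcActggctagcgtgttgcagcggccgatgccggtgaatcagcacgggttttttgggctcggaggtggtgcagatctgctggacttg
Psmb1 (chr17:15475021-15499751, - strand, from base 7): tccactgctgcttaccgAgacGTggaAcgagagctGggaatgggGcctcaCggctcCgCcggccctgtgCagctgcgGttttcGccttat
Gm14830 (chrX:94774978-94775677, - strand): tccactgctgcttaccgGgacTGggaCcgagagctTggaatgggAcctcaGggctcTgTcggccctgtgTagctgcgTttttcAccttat
Psmd11 (chr11:80428615-80473248, + strand): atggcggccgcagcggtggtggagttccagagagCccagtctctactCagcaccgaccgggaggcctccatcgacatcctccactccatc
Gm14048 (chr2:130880866-130882133, + strand): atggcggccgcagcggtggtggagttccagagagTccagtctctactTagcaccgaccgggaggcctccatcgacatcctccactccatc

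In the stretches shown, gene and copy differ at 5 bases for Psma2, at 1 base for Psmb5 (G6A), at 12 bases for Psmb1 and at 2 bases for Psmd11 (C35T and C48T). Over the coding sequence the identity was 94.8% for Psma2, 98.9% for Psmb5, 90.5% for Psmb1 and 98.0% for Psmd11. Psma3 (chr12:70974621-70996347) and Gm13835 (chr6:31141979-31142663) were identical over all 543 aligned coding bases of the transcript compared. The activator pair Psme2 and Psme2b, both members, shared 99.4% of their bases, so the split of reads between them is uncertain as well.

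The split between gene and copy differed between the AGM and the YS. Psmb5 held 10.2% (8.64 to 11.8%) of the counts of its family in HE AGM, against 3.04% (2.17 to 4.06%) in HE YSA and 3.07% (2.11 to 4.31%) in HE YSP. For Psmb1 the gene's share was 46.3%, 18.4% and 18.7% in HE AGM, HE YSA and HE YSP. The shares of Psmb6 were 64.2%, 41.5% and 42.4%, and those of Psmd11 were 59.7%, 27.6% and 30.6%. In each of these families the gene took a larger part of the counts in the AGM cells. The level of the gene with its copies went the other way. The Psmb5 family stood at 435 CPM (413 to 458) in HE AGM, 716 CPM (678 to 755) in HE YSA and 623 CPM (586 to 662) in HE YSP, with single cells from 107 to 756 CPM around a median of 413 CPM in HE AGM and from 160 to 1307 CPM around a median of 738 CPM in HE YSA. The Psma2 family, with nearly all its counts on Gm6474, stood at 419, 693 and 601 CPM in the same order. For Psmb3, Psmd2 and Psma4 the gene's share was lower in the AGM cells, at 70.0%, 72.6% and 92.7% in HE AGM, compared with 77.7%, 85.1% and 97.6% (HE YSA) and 78.6%, 83.6% and 97.3% (HE YSP). Ratios of Psmb5, Psmb1, Psmb6, Psmd11 and Psma3 on their own are given below with those of the family.

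**Figure D1:**
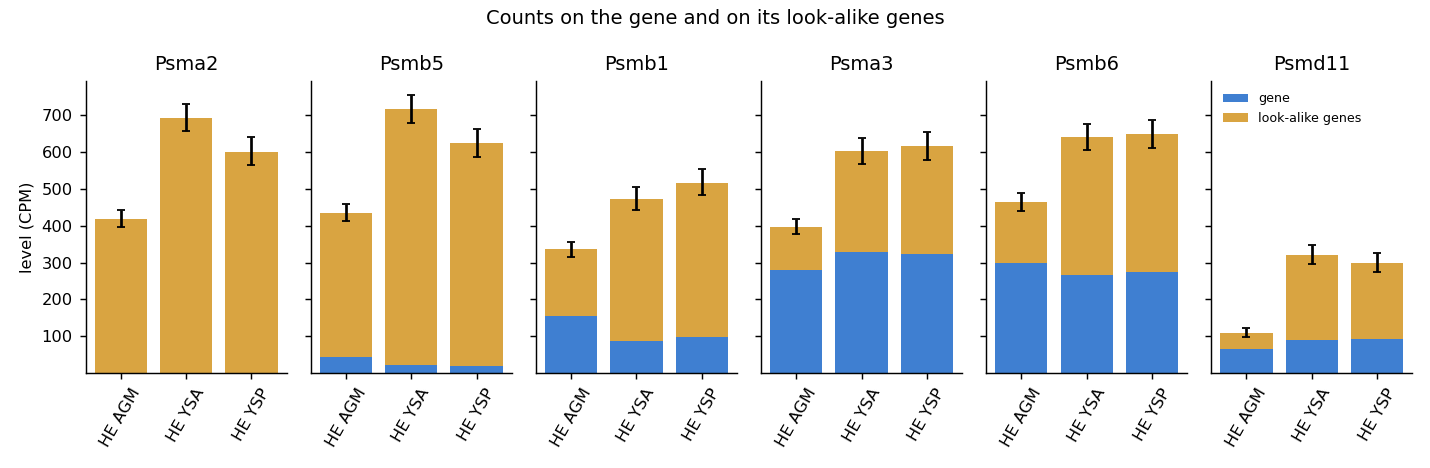
Level in CPM of 6 members (blue) and of their look-alike genes (ochre, stacked) in HE AGM, HE YSA and HE YSP, with 95% exact Poisson intervals on the sum. In all 6 families the sum is lower in HE AGM than in either YS population, and the blue part of Psmb5 and Psmb1 is larger in HE AGM.

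The summed level of the 51 members was lowest in the AGM clusters and highest in the YS progenitors. It was 7145 CPM in c3, 7908 CPM in c4 and 7460 CPM in c5. Arterial YS HE stood at 9395 CPM (a1) and 9548 CPM (a2), plexus HE at 9201 CPM (b2) and 10724 CPM (b3), and the progenitors at 11583 CPM (p1) and 11605 CPM (p2). Counting intervals overlapped among a1, a2 and b2 and between p1 and p2. In HE AGM the sum was 7463 CPM (7371 to 7557), and single cells ran from 5296 CPM over a median of 7489 CPM to 10374 CPM. HE YSA had 9480 CPM (9343 to 9620), with cells from 6388 CPM over 9294 CPM to 12907 CPM. HE YSP had 9949 CPM (9799 to 10102), with cells from 6472 CPM over 10200 CPM to 13717 CPM. The cells of the groups overlapped. Of 49 HE AGM cells, 5 lay above the HE YSA median and 2 above the HE YSP median. The order of the 3 HE populations was the same in each nanopore run, with 7407, 7651 and 7409 CPM in HE AGM, 9336, 9381 and 9680 CPM in HE YSA and 10078, 9959 and 9830 CPM in HE YSP. With the look-alike genes added the sums were 9072, 12406 and 12747 CPM, and then 3 and 0 of the 49 HE AGM cells lay above the medians of HE YSA and HE YSP. HE AGM stayed lowest in each run with the look-alikes, but in run 3 HE YSA (12654 CPM) stood above HE YSP (12596 CPM).

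**Figure D2:**
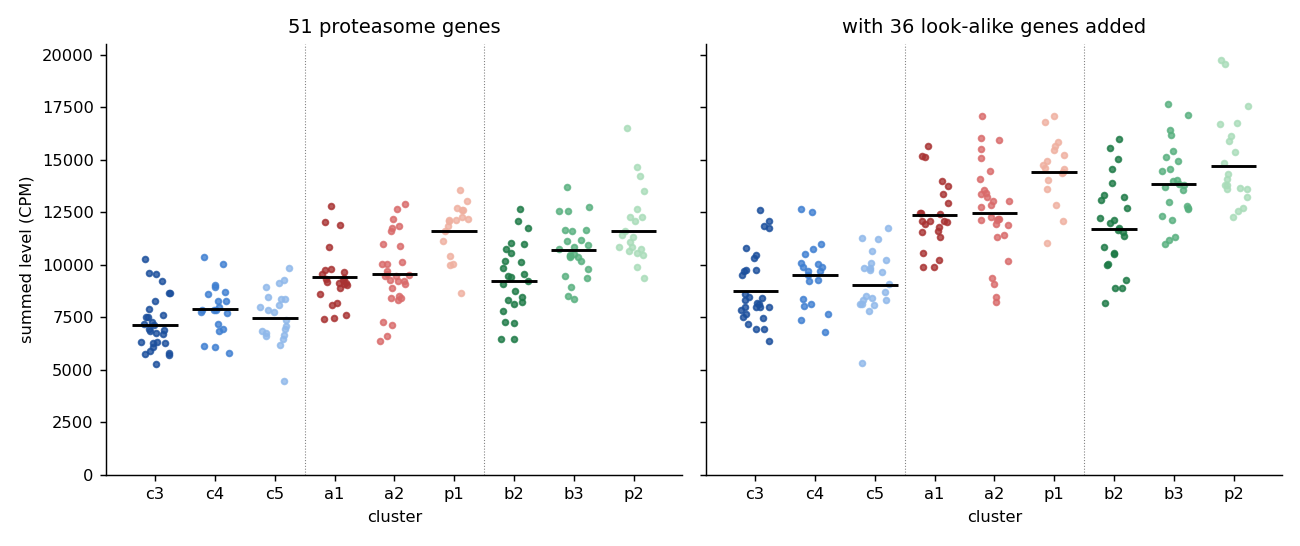
Summed CPM of the 51 members in each of 208 cells (points) by cluster, without (left) and with (right) their look-alike genes, and the value of the pooled cluster (black line). Dotted lines part the AGM, arterial YS and plexus YS clusters, the last with their progenitors p1 and p2, and the AGM lines lie between 7145 and 7908 CPM on the left.

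To ask how the members compared one by one, log2 ratios of CPM were taken for genes with at least 50 counts over both populations, with 0.5 counts added to each sum. HE AGM over HE YSA gave a median log2 ratio of -0.33 over 46 members, 14 above and 32 below 0, beside 0.25 over all 8968 genes. For HE AGM over HE YSP the median was -0.44 over 45 members, beside 0.30 over all 8803 genes. Here 12 members were above and 33 below 0, beside 59.1% of all genes above 0. Both comparisons share the HE AGM cells. In the 3 runs the members' median was -0.31, -0.21 and -0.42 against HE YSA, and for HE YSP it was -0.49, -0.41 and -0.41. Against HE YSA 21 members were below and 6 above 0 in every run, and against HE YSP 25 and 8. Signs by run were not counted over all genes. The median of all genes depended on the count minimum. From 50 to 200 to 500 counts it went from 0.25 to -0.01 to -0.18 against HE YSA, and from 0.30 to 0.01 to -0.18 against HE YSP, while the members stayed at -0.33, -0.34 and -0.35, and at -0.44, -0.48 and -0.46. The AGM cells also had more counts, with a median total of 59311 against 34484 (HE YSA) and 33297 (HE YSP). With each cell thinned to 18000 counts the members' median was -0.36 against HE YSA, beside 0.02 for all genes. The poscounts size factors of DESeq2 gave -0.11 and 0.48, and its size factors on the cluster sums gave -0.39 and 0.19. The members' transcripts were shorter (median 1184 bases) than those of all genes with 50 counts (1682 bases), and centred on genes of like length the members' median was -0.23 against HE YSA. For HE YSP it was -0.38. Other marker genes also differed between the sites. The endothelial list summed to 1699, 1049 and 1084 CPM in HE AGM, HE YSA and HE YSP. The list of red blood cells summed to 199.9, 40.7 and 29.6 CPM (32.4 CPM in HE AGM without 1 cell of c3 that held 10009 CPM). The megakaryocyte list summed to 256, 31.0 and 50.2 CPM. In HE AGM nearly all of that sum was Itgb3 (249 CPM), which also led the list in HE YSA. In HE YSP most of the sum was Pf4 (43.7 CPM). The higher megakaryocyte sum in HE AGM thus rests on Itgb3. The part of these lists in the ratios was not tested. The 31 members without any look-alike had a median of -0.34 against HE YSA (22 below 0), and 30 of them had -0.44 against HE YSP (22 below 0). Few members differed by 2-fold. Against HE YSA, 3 of 46 were at least 2-fold higher and 1 at least 2-fold lower, beside 29.3% and 12% of all genes. Against HE YSP, 3 of 45 were higher and 3 lower, beside 31.1% and 13.2% of all genes.

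**Figure D3:**
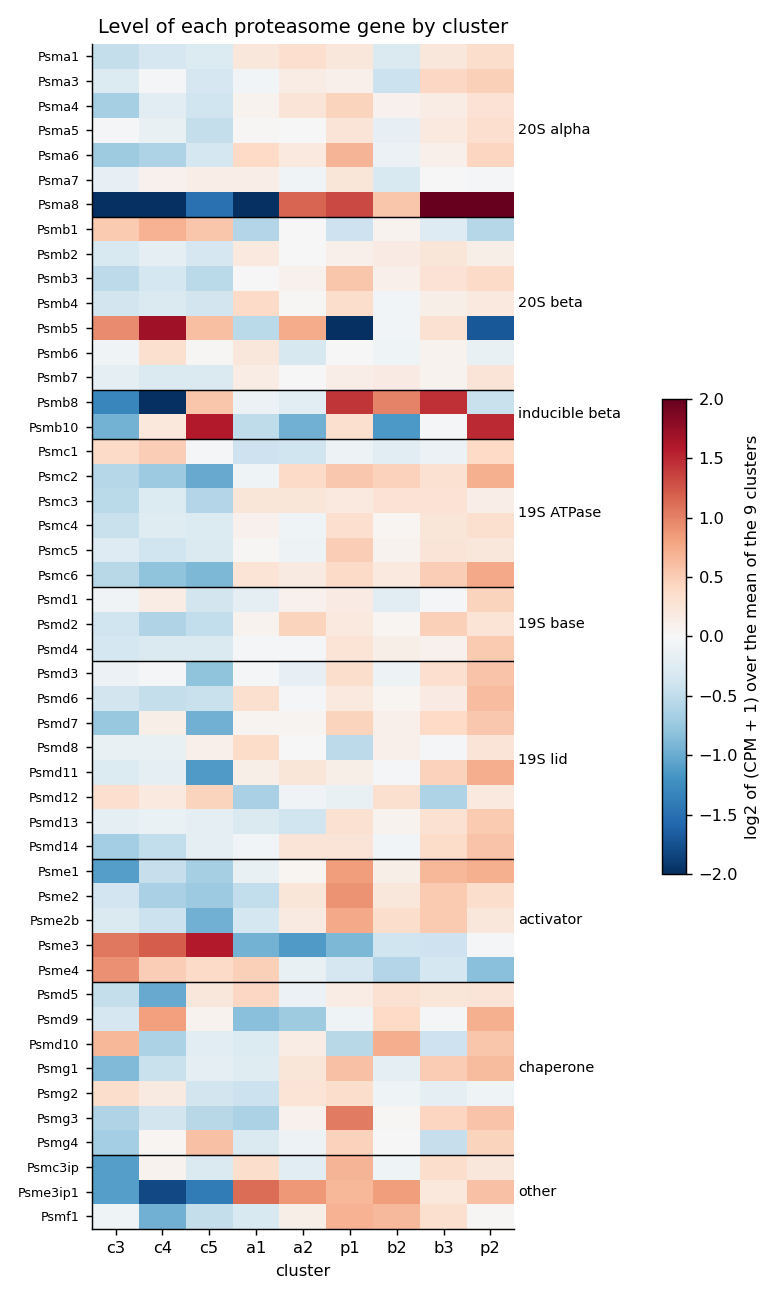
Level of the 48 members with at least 50 counts (rows, by role) in the 9 clusters (columns), as log2 of CPM + 1 over the geometric mean of the clusters, with colours ending at -2 and 2. The AGM columns c3, c4 and c5 are blue for most alpha, ATPase and lid rows and red for Psme3, which stood at 126, 141 and 184 CPM there.

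The alpha subunits, which form the outer rings and the gate of the core, summed to 1961 CPM (1914 to 2009) in HE AGM, 2714 CPM (2640 to 2789) in HE YSA and 2448 CPM (2374 to 2524) in HE YSP. All 6 measured alpha genes were below 0 against HE YSA and 5 of 6 against HE YSP. Psma6 differed most. It stood at 252 CPM in HE AGM (cells from 0 over a median of 249 to 566), 493 CPM in HE YSA (cells from 35.9 over 449 to 1358) and 400 CPM in HE YSP (cells from 0 over 410 to 1060). Its log2 ratio was -0.97 (-1.11 to -0.83) against HE YSA, and below 0 in each run. Psma7 differed least, at 372, 391 and 348 CPM. Per kilobase of transcript the alpha genes ran from 0.151 CPM per kb for Psma2, whose reads lay on its copy, to 456 CPM per kb for Psma6. Psma8, the alpha subunit of the testis proteasome, was rare. No count of it fell in the 49 HE AGM cells, where 3 counts would be 0.901 CPM. It had 5.25 CPM in HE YSA and 16.7 CPM in HE YSP, where 10 of 49 cells held at least 1 count. Among the YS clusters it was highest in b3 (28.02 CPM, 8 of 24 cells) and p2 (24.6 CPM, 5 of 20 cells).

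The constitutive beta subunits summed to 1728 CPM in HE AGM, 1993 CPM in HE YSA and 2096 CPM in HE YSP. Psmb2, a subunit without protease activity, had the highest level per length of this role and of all members (666 CPM per kb), and Psmb5 had the lowest in the role (30.4 CPM per kb). Psmb5 was among the members past 2-fold in both comparisons, at 44.3 CPM in HE AGM, 21.7 CPM in HE YSA and 19.1 CPM in HE YSP. Its log2 ratios were 1.01 (0.53 to 1.57) and 1.19 (0.65 to 1.81). Counts of Psmb5 reached 1 in 21 of 49, 9 of 52 and 6 of 49 cells. With the copy Gm3375 added the ratios were -0.72 and -0.52, so the direction turned. Psmb1 likewise had 0.83 and 0.68 as a gene and -0.49 and -0.62 as a family, and Psmb6 had 0.17 and 0.11 as a gene and -0.46 and -0.48 as a family. The remaining beta genes were lower in HE AGM in both comparisons. Psmb3, for example, stood at 313, 440 and 488 CPM.

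The ATPases of the 19S cap summed to 1204 CPM (1167 to 1242) in HE AGM, 1612 CPM (1556 to 1670) in HE YSA and 1780 CPM (1717 to 1845) in HE YSP. 5 of the 6 were below 0 in both comparisons. Psmc2 stood at 105.4 CPM (cells from 0 over 99.3 to 291) in HE AGM, 187 CPM (0 over 181 to 503) in HE YSA and 214 CPM (0 over 198 to 550) in HE YSP. Psmc6 stood at 89.7, 166 and 182 CPM. Against HE YSP both were past 2-fold, with log2 ratios of -1.02 (-1.24 to -0.81) and -1.02 (-1.25 to -0.78). The cells overlapped for both genes, and each run gave a ratio below 0. Psmc1 went the other way at 140, 77.8 and 92.3 CPM, with 0.84 and 0.60, above 0 in each run. Of this role Psmc3 was the highest per length (264 CPM per kb) and Psmc2 the lowest (88.2 CPM per kb).

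Base subunits, which bind ubiquitin and scaffold the cap, summed to 481, 624 and 637 CPM in HE AGM, HE YSA and HE YSP. The lid, whose subunit Psmd14 strips ubiquitin from the substrate, summed to 927, 1140 and 1259 CPM. Psmd14 itself stood at 152, 251 and 259 CPM, with log2 ratios of -0.72 and -0.77. Psmd2, a large scaffold of the base, stood at 146, 248 and 245 CPM. Psmd12 was the lid gene with the highest ratio, 0.59 against HE YSA and 0.36 when HE YSP was the partner, from 51.8, 34.2 and 40.3 CPM. Psmd11 had -0.43 and -0.48 as a gene and -1.54 (-1.74 to -1.36) and -1.44 (-1.64 to -1.25) with its copies, and its family level was 110, 321 and 299 CPM. That was the largest difference among the families. Per length, Psmd4 and Psmd1 were the highest and lowest of the base (198 and 56.0 CPM per kb), and Psmd14 and Psmd12 those of the lid (161 and 33.5 CPM per kb).

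The activators divided. Psme3, the nuclear activator, was higher in HE AGM, and Psme1 and Psme2, which are induced by interferon and pair in one ring, were lower. Psme3 stood at 132 CPM (120 to 145) in HE AGM, with cells from 0 over a median of 83.1 to 432 CPM. In HE YSA it had 28.9 CPM (21.7 to 37.6), with cells from 0 over 0 to 288 CPM, and in HE YSP 45.5 CPM (35.8 to 56.9), with cells from 0 over 0 to 327 CPM. The groups overlapped, but most YS cells were at 0. At least 1 count of Psme3 was seen in 41 of 49 cells of HE AGM, compared with 17 of 52 (HE YSA) and 18 of 49 (HE YSP), and in 71.4%, 26.9% and 30.6% of them after thinning to 18000 counts. The ratio was 4.55-fold against HE YSA (log2 2.19, 1.79 to 2.63) and 2.90-fold against HE YSP (log2 1.54, 1.19 to 1.91). It was above 0 in each run, at 1.98, 0.93 and 3.40 against HE YSA. By cluster Psme3 had 126 CPM in c3, 141 CPM in c4 and 184 CPM in c5, where every cell of c4 and c5 held a count, and 27.2 to 58.7 CPM in the 6 YS clusters. The counting intervals of the AGM and YS clusters did not meet.

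Psme1 stood at 205 CPM (190 to 221) in HE AGM, 347 CPM (321 to 375) in HE YSA and 476 CPM (444 to 510) in HE YSP, and single cells ran from 0 over medians of 185, 340 and 436 to 623, 926 and 1130 CPM. Its log2 ratio was -0.76 against HE YSA and -1.21 (-1.36 to -1.06) against HE YSP. Psme2 had 155, 212 and 285 CPM. Psme4, the large monomeric activator, stood at 43.3 CPM in HE AGM, 28.3 CPM in HE YSA and 17.9 CPM in HE YSP. It was past 2-fold against HE YSP (log2 1.25, 0.69 to 1.89), above 0 in each run, while 1 of 3 runs was below 0 against HE YSA. Psme1 and Psme4 were the highest and lowest activators per length (392 and 4.88 CPM per kb).

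The assembly chaperones summed to 435, 522 and 571 CPM. Psmd9, a chaperone of the base, was past 2-fold against HE YSA at 13.8 and 6.30 CPM (log2 1.09, 0.19 to 2.19), from 14 of 49 and 9 of 52 cells with a count. In HE YSP it had 13.2 CPM. Psmd5 had the lowest ratio, -0.84 (HE YSA) and -0.98 (HE YSP), and run 2 gave 1.77 against HE YSA. Psmg4 was the highest chaperone per length (299 CPM per kb) and Psmd10 the lowest (9.04 CPM per kb). Of the genes that are no subunits, Psme3ip1 was lower in HE AGM than in HE YSA, 4.12 against 24.9 CPM (log2 -2.56, -3.53 to -1.67). It had at least 1 count in 10 of 49, 16 of 52 and, in HE YSP, 13 of 49 cells. Without Psmc3ip and Psme3ip1 the members' median against HE YSA was -0.32.

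The YS HE populations were closer to each other. HE YSP over HE YSA gave a median of 0.10 over 44 members, beside 0.01 over all genes, and 0 of 44 members were 2-fold higher or lower, beside 6.03% and 7.06% of all genes. All 6 ATPases were above 0 (0.05 to 0.25) and 5 of 6 alpha genes below 0, beside 50.5% of all genes above 0. Of the 44 members 11 kept their sign in each run. Largest among the members were Psme3 (log2 0.65, 0.14 to 1.18), Psmf1 (0.55) and the lid subunit Psmd13 (0.54, from 147 to 214 CPM, above 0 in each run), and lowest were Psme4 (-0.65), Psme3ip1 (-0.44) and Psma1 (-0.31). Psme1, Psme2 and Psme2b were at 0.46, 0.42 and 0.47, above 0 in each run. In YS cells of E10.5 alone the members' median was -0.08.

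Late against early HE was then compared within each site. For c4 over c3 the members' median was 0.11, beside -0.02 for all genes. Psmc3ip (log2 1.21, 0.66 to 1.78, from 23.2 to 53.9 CPM) and Psmb10 (1.19, 0.59 to 1.83) were 2-fold higher, 2 of 43 members beside 5.99% of all genes, and 0 were 2-fold lower beside 12.1%. Psmb10 was above 0 in run 3 only. The median for a2 over a1 was 0.0016, with 0 of 41 members past 2-fold either way, beside 6.32% higher and 6.43% lower. Psme2 (0.73), Psmg3 (0.73) and Psmg2 (0.71) were highest, and Psme4 (-0.66), Psmc3ip (-0.57) and Psmb6 (-0.55, and -0.23 with its copies) lowest. For b3 over b2 the median was 0.18 beside 0.10 for all genes, with 0 of 40 past 2-fold, beside 8.77% higher and 8.3% lower. In run 3 alone the median was -0.0019, and 10 of the 40 members kept their sign in each run. All 6 alpha genes were above 0, beside 57.4% of all genes. Psma3 led them (0.84, 0.58 to 1.10, from 234 to 418 CPM, above 0 in each run, and 0.51 with its copies). Psmg1 (0.70) and Psme1 (0.54) followed, and Psmd12 (-0.94), Psmg4 (-0.46) and Psmb1 (-0.33) were lowest. With its copies Psmb1 had -0.03 (-0.23 to 0.16).

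From late HE to the progenitors the sites differed in their medians. For p1 over a2 it was 0.31 over 41 members, beside 0.05 for all genes. Of the 41 members 33 were above 0, beside 54.0% of all genes. In every run 21 members were above 0 and 0 were below 0, and signs by run were not counted over all genes. For p2 over b3 the median was 0.14 beside 0.05, with 30 of 41 above 0, beside 54.5% of all genes. For c5 over c4 the median was -0.09 beside -0.04, and 0.02 without run 3. There 17 of 43 were above 0, beside 46.8% of all genes. The difference between the sites was not tested. Psmb10, the inducible trypsin-like subunit, was past 2-fold in all 3, at 1.39 (0.97 to 1.84) for c5 over c4, 1.32 (0.47 to 2.22) for p1 over a2 and 1.55 (0.94 to 2.22) for p2 over b3, and above 0 in each run. In c5 over c4 the chaperone Psmd5 (1.26, 0.62 to 1.97) was also higher, and Psmb5 (-1.12) and the lid subunit Psmd7 (-1.09, -1.43 to -0.76, from 164 to 76.8 CPM) were lower. The Psmb5 family had -0.03 (-0.19 to 0.12), so the gene's difference was not seen once its copies were added. That made 2 of 43 members higher and 2 lower, beside 6.38% and 11.1% of all genes. For p1 over a2, 1 of 41 was higher and 0 lower, beside 7.13% and 9.71%, and the next were Psmg3 (0.96, from 93.0 to 181 CPM), Psmc3ip (0.90) and Psme1 (0.79, from 367 to 636 CPM). Lowest were Psmd8 (-0.54), Psmb1 (-0.41, and -0.24 with its copies) and Psmd2 (-0.25). For p2 over b3, 1 of 41 was higher and 0 lower, beside 4.79% and 6.83%, followed by Psmg4 (0.90) and Psmd12 (0.82), with Psmb1 (-0.31, and -0.28 with its copies), Psmf1 (-0.30) and Psme2b (-0.29) lowest. Between the progenitors, p2 over p1 gave 0.08 over 41 members, beside 0.03. Psmb10 (1.18, 0.58 to 1.84) was the 1 member 2-fold higher and 0 were lower, beside 5.07% and 4.6%. Psme3 (0.86) and Psmd8 (0.79) followed, and Psmf1 (-0.68), Psme2 (-0.55) and Psme2b (-0.53) were lowest.

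Of the inducible subunits, Psmb10 was higher in the blood clusters than in HE, while Psmb8 and Psmb9 did not share this order. Psmb10 stood at 19.1 CPM in c3, 43.9 CPM in c4 and 115 CPM (98.8 to 134) in c5, where cells ran from 0 over a median of 95.9 to 443 CPM and 18 of 21 held a count. In the YS it had 26.2 CPM in a1, 18.8 CPM in a2, 47.2 CPM in p1, 16.5 CPM in b2, 36.5 CPM in b3 and 108 CPM (85.4 to 134) in p2, where 16 of 20 cells held a count. Clusters c5 and p2 thus overlapped each other and stood above the other 7, although single cells at 0 occurred in all 9. Psmb8, the inducible partner of Psmb5, had 22.8 CPM in p1, 23.1 CPM in b3, 16.5 CPM in b2 and 11.9 CPM in c5, and at most 7.14 CPM in the other clusters. Psmb9, the partner of Psmb6, reached 18.3 CPM in p1 (3 of 17 cells). It was not counted in c3, a1 and p2, where 3 counts would be 1.55, 3.57 and 4.10 CPM. The constitutive partners were spread more evenly. Psmb7 ran from 254 CPM in c4 and c5 to 371 CPM in p2 and Psmb6 from 219.9 CPM in a2 to 346 CPM in c4, while Psmb5 ran from 3.50 CPM in p1 to 58.4 CPM in c4, with most of its family's counts on the copy. Both Psmb8 and Psmb9 are in the study's lymphomyeloid signature, so their level in p1 is not independent evidence of that label.

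Psmb8, Psmb9 and Psmb10 together held 19.01% (16.7 to 21.5%) of the counts of the 6 exchangeable beta subunits in c5, and 18.6%, 19.1% and 19.2% in its 3 runs. The share was 3.67% in c3 and 6.63% in c4. It was 4.68% in a1, 5.54% in a2 and 12.5% (9.63 to 15.9%) in p1, and 5.86% in b2, 8.72% in b3 and 15.3% (12.4 to 18.7%) in p2. Pooled over runs, each blood cluster stood above the HE clusters of its own site, and the intervals of p1 and b3 met. By run this held for c5 but not for the YS. The runs gave 7.998%, 12.2% and 16.2% in p1, 21.2%, 12.1% and 12.2% in p2, 6.32%, 12.9% and 8.47% in b3 and 11.6%, 0.571% and 5.31% in b2. In run 2 b3 thus lay above both progenitor clusters, and in run 1 b2 lay above p1. With the copies of Psmb5, Psmb6 and Psmb7 added, the shares were 10.2% in c5, 4.87% in p1 and 6.08% in p2, and between 1.72% and 3.63% in the HE clusters. Of the counts of Psmb10, 74.5 to 87.0% lay on transcripts not annotated as protein_coding in the populations with at least 20 counts. With protein_coding transcripts alone the shares were 6.08% in c5, 5.87% in p1, 5.02% in p2, 4.46% in b3 and 1.12% in c4. Blood markers were also higher in the blood clusters. The 6 genes of the list (Ptprc, Myb, Spi1, Itga2b, Coro1a, Laptm5) summed to 1296, 1267 and 979 CPM in c5, p1 and p2 and to 216 to 944 CPM in the HE clusters. Cluster by cluster the marker sum and the inducible share did not keep the same order. The sums of c4 (944 CPM) and p2 (979 CPM) were close, at shares of 6.63% and 15.3%. The part that blood cells play in the share was not tested. Of the macrophage list, C1qa, C1qb, C1qc and Adgre1 were at 0 in all clusters, while Mpo led it in the blood clusters (206 to 323 CPM).

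**Figure D4:**
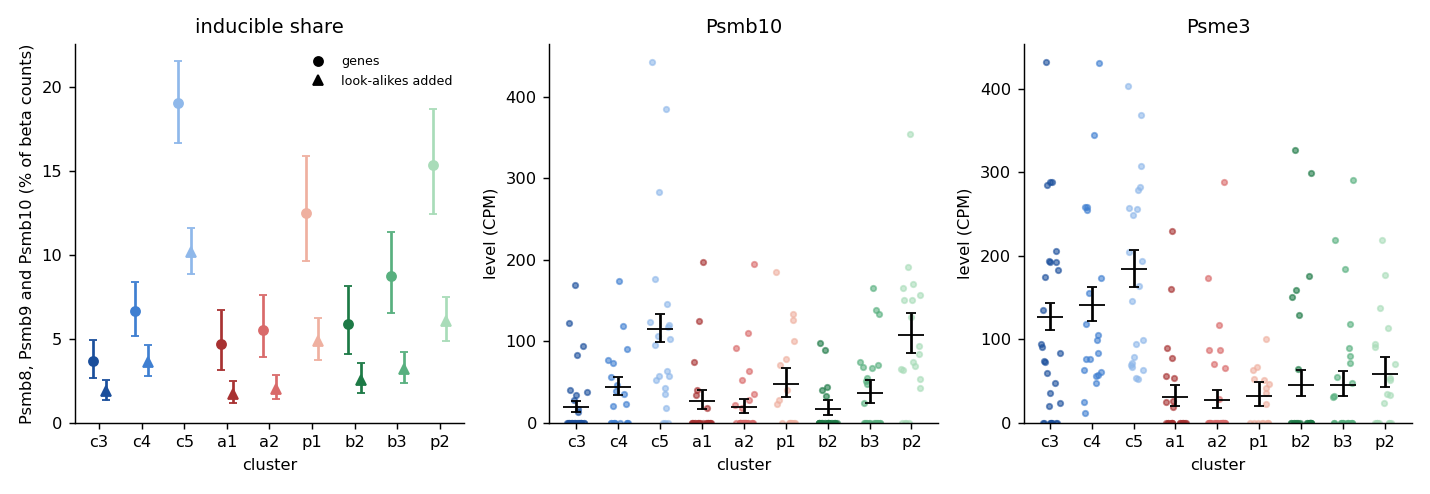
Share of Psmb8, Psmb9 and Psmb10 in the counts of the 6 exchangeable beta subunits by cluster (left, circles, or triangles with look-alike genes added, 95% exact binomial intervals), and CPM of Psmb10 (middle) and Psme3 (right) in each cell (points) with the pooled level and 95% Poisson interval (black). Psmb10 is highest in c5 and p2, and Psme3 in c3, c4 and c5.

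Transcript use within the genes was compared for members with at least 200 counts in both populations. A gene was counted when 1 of its transcripts differed by more than 10 percentage points with the same sign in each run. Against HE YSA this held for 13 of 28 members, beside 45.9% of all genes, and against HE YSP for 15 of 28, beside 42.2%. The members thus stood near the rest of the genes. The counts were 0 of 28 for HE YSP over HE YSA (5.84% of all genes), 2 of 22 for c4 over c3 (8.59%), 1 of 17 for a2 over a1 (4.95%), 0 of 15 for b3 over b2 (4.76%) and 4 of 21 for c5 over c4 (6.57%). They were 0 of 14 for p1 over a2 (3.58%), 0 of 17 for p2 over b3 (5.28%) and 0 of 14 for p2 over p1 (7.28%). In cells of 30000 to 60000 counts only 2 calls met the rule over the 10 comparisons. Fewer genes reached 200 counts there, and the part this played was not tested.

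The beta subunit Psmb4 differed most. All of its counts in HE AGM, and 99.8% and 99.4% of those in HE YSA and HE YSP, lay on transcripts not annotated as protein_coding. Psmb4-203, a retained-intron transcript of 292 bases, took 54.6% (50.2 to 59.0%) of the counts in HE AGM, compared with 4.27% (HE YSA) and 3.16% (HE YSP). The longer Psmb4-202 (666 bases) took 41.4%, 91.3% and 90.9%. By cluster the short form had 57.6% in c3, 50.7% in c4 and 39.6% in c5, and 3.14 to 7.98% in the YS clusters. Thus the AGM clusters lay apart from the YS clusters. For Psme1, the form Psme1-210 (882 bases) took 54.0% in HE AGM, compared with 87.5% (HE YSA) and 86.2% (HE YSP), and the longer Psme1-208 (1112 bases) took 18.7%, 3.15% and 2.64%. Psma6-201 (1042 bases) took 52.3%, 21.1% and 20.5%, and Psma6-204 (787 bases) took 24.6%, 41.0% and 42.8%. Both are annotated as protein_coding. Psmd4-206 (695 bases), of the ubiquitin receptor Psmd4, took 23.8%, 2.35% and 4.75%.

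Other members past the rule against both YS populations were Psma3, Psma4, Psma5, Psma7, Psmc3, Psmc4, Psmd1, Psmd7 and Psmd14. Psma4-201 (1165 bases) took 82.7% in HE AGM, compared with 61.0% (HE YSA) and 63.6% (HE YSP). Psmd1-204, a form annotated for nonsense-mediated decay, took 67.7%, 86.6% and 85.1%. Psmd14-206 (704 bases) took 6.52%, 24.7% and 24.9%. Psmc6 and Psmd2 met the rule against HE YSP alone, and whether they differ between the comparisons was not tested. Psmc6-203, a retained-intron form, took 57.3% in HE AGM and 33.3% in HE YSP. Over all members, the share of counts on transcripts not annotated as protein_coding was 18.3% for HE AGM, 20.9% for HE YSA and 19.7% for HE YSP, beside 19.9%, 21.6% and 21.4% over all protein-coding genes. Short and long forms went either way in HE AGM, and tissue cannot be told apart from the cDNA project here.

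**Figure D5:**
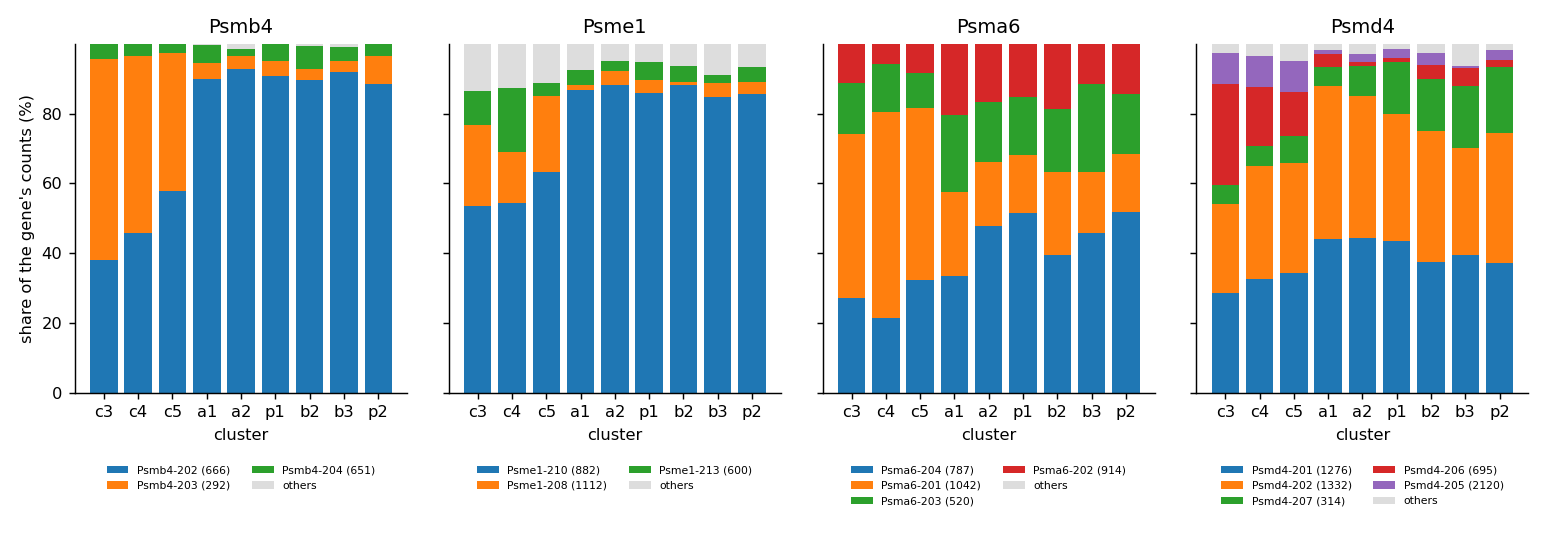
Share of each gene's counts on its annotated transcripts (length in bases in the legend, transcripts under 5% in every cluster in grey) in the 9 clusters for Psmb4, Psme1, Psma6 and Psmd4. In c3, c4 and c5 Psmb4-203 takes 57.6%, 50.7% and 39.6%, and at most 7.98% in the YS clusters.

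Of 30 other genes of the ubiquitin-proteasome pathway, 29 were found. Against HE YSA 26 of them were measured, 5 were at least 2-fold higher in HE AGM and 1 lower, beside 29.3% and 12% of all genes, with a median of -0.08. Higher were the shuttle factors Ubqln1 (87.4 against 33.1 CPM), Ubqln2 (51.4 against 2.10 CPM) and Ubqln4 (79.3 against 26.8 CPM), the ubiquitin ligase Ube3c (37.5 against 11.02 CPM) and Ddi2 (24.9 against 6.82 CPM), the protease that activates Nfe2l1. Fbxo7 was lower (12.6 against 29.9 CPM). Against HE YSP 4 of 24 were higher (Ubqln1, Ubqln2, Ube3c and Ddi2) and 0 lower, beside 31.1% and 13.2% of all genes. Nfe2l1, a transcription factor of proteasome genes, had a log2 ratio of 0.69 and 0.75. The ubiquitin receptor Adrm1 had -0.46 and -0.29. In p1 over a2 Nfe2l2 was higher (1.13) and Nfe2l1 lower (-1.14), and in p2 over b3 Ubqln1 was higher (1.49). For antigen presentation on MHC class I, which uses proteasome products, 8 of 17 genes were measured against HE YSA. Lower in HE AGM were H2-D1 (69.8 against 201 CPM) and Pdia3 (21.3 against 129 CPM), and 0 were 2-fold higher, beside the same 12% and 29.3% of all genes. Against HE YSP Pdia3 was lower (log2 -2.66) and Irf2 higher (1.21), beside 13.2% and 31.1%.

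Promoters were read from RefSeq sequence (GRCm38.p6) for the 250 bases before the start, with 47 windows of 43 members. The CCAAT box was in 34.0% of the windows of the members and in 33.8% of all windows, on either strand. GGGCGG was in 51.1% against 32.7%. TGACNNNGC, the core of the antioxidant element that Nfe2l1 and Nfe2l2 bind, was in 10.6% against 10.2%, in the windows of Psmb5, Psmb6, Psmc6, Psmd12 and Psmd9. An interferon-type element, a pair of GAAA stretches parted by a pair of any bases, was in 6.38% against 2.98%, in Psmb3, Psmd4 and Psmd9. A match describes letters only. The 150 bases before the start are shown for Psme3, the member with the largest ratio, and for Psmb5, on the coding strand with the matches in capitals (the CCAAT box reversed in Psme3, TGACNNNGC in Psmb5).
Psme3 (chr11:101316063-101316212, + strand): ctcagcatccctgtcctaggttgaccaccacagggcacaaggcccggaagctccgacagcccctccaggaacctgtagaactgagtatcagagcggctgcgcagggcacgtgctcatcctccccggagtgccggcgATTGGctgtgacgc
Psmb5 (chr14:54617996-54618145, - strand): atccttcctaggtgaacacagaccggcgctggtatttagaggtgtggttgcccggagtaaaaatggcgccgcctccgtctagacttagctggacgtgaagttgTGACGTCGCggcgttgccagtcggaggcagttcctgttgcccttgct

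Marker genes of the labelled cell types were read in each cluster. The study drew the clusters from the same cDNA and chose Lyve1 and Vwf as markers from its own data. These levels therefore describe the clusters and are no independent check of the labels. The endothelial list (Cdh5, Pecam1, Kdr, Tek, Tie1, Emcn and Eng) summed to 2193, 1010 and 375 CPM in c3, c4 and c5, to 1355 and 807 CPM in a1 and a2, to 1457 and 698 CPM in b2 and b3, and to 306 and 223 CPM in p1 and p2. The arterial list summed to 1628 CPM in c3 and 1899 CPM in a1 and to at most 457 CPM elsewhere, and its gene Dll4 was at 0 in every cluster except c4. The plexus list summed to 1904 CPM in b2 and 435 CPM in b3, of which Lyve1 gave 911 and 414 CPM. In b3 its genes Stab2 and Maf were at 0. The list summed to 54.7 CPM in a1 and 2.10 CPM in HE AGM. In a2 it summed to 153 CPM, led by Stab2 (107 CPM), or to 38.3 CPM without the 1 cell at 2690 CPM. The hemogenic list ran from 108 CPM in b2 to 723 CPM in c4. Genes of red blood cells summed to 304 CPM in c3, or 15.9 CPM without the 1 cell at 10009 CPM, and to at most 54.7 CPM in other clusters, those of megakaryocytes to 353 CPM in c4 (mostly Itgb3), and those of mesenchyme to 172 CPM in c5, all of it Dlk1, and at most 30.9 CPM elsewhere. The macrophage list summed to between 32.1 CPM in a1 and 385 CPM in p1, and yolk sac endoderm genes to at most 9.75 CPM.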

How the data were processed

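Single cells were sorted into plates, and the Smart-seq2 cDNA made from them was sequenced on a PromethION in 3 runs, each with cells of every cluster. Per the study's methods the authors basecalled with Dorado, trimmed adapters, removed chimeric reads, aligned to the GENCODE mouse transcripts (release M37) with minimap2 2.26 and estimated transcript counts with NanoCount. The submitters' processing notes name R 4.3.0 and DESeq2 1.40.2 as well. The deposited estimated counts need not be whole and were summed over the transcripts of a gene, without rounding except for the interval bounds. The deposited TPM values are the counts of a cell scaled to a total of 1000000 with no length correction and served as an alternative. Reads that fit several transcripts or copies are shared out by the estimate, so shares between them are uncertain.

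Cells under 17595 counts, 1 scaled median absolute deviation below the median, were left out (13 of 221). Counts were summed per cluster and divided by the cluster's total (CPM), and log2 ratios used 0.5 added counts and a minimum of 50 counts over both populations. A cell held a count at 1 or more, with a tolerance of 0.001. Members past 2-fold with the same sign in each run were named, and up to 3 in each direction where fewer than 6 passed. The highest and lowest of each role were taken per kilobase of transcript. By CPM without length the order can differ, as for the chaperones Psmg1 (158 CPM) and Psmg4 (147 CPM). Intervals were exact Poisson, binomial or conditional binomial intervals (scipy 1.17.1). No test was made because no embryo is named. The ratio calculation was tested on simulated data before use. Look-alike genes were found with minimap2 2.31 in the GENCODE M21 transcripts (GRCm38), which held 50 of the 51 members, and sequences come from there and from RefSeq. The members and lists were chosen with earlier results of these data known. No column of other samples was found. Protein sequences were not used here.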

Additional observations from a re-analysis of the deposited data

Results flagged for a closer look

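The ATPase genes Psmc1 and Psmc6 had opposite signs at the AGM and the YS in every run when the blood clusters were compared with late HE. Psmc1 had a log2 ratio of -0.52 for c5 over c4, 0.31 for p1 over a2 and 0.51 for p2 over b3. Psmc6 had -0.09, 0.21 and 0.26. With its copies Psmc1 had -0.53 (-0.85 to -0.22) for c5 over c4 and 0.48 (0.05 to 0.93) for p2 over b3. For p1 over a2 it had 0.31 (-0.18 to 0.79), an interval that holds 0. Psmc6 held only 299 counts in HE AGM and 304 in HE YSP. Its small ratios are given without intervals, and whether they exceed counting error was not tested. Both genes were picked by looking through all members for this pattern of signs. How often other genes show the pattern was not counted. The difference between the sites was not tested.

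Genes outside the name rule held more counts than the members they resemble. Over all cells used, Gm6474 had 5292 counts (Psma2 2), Gm3375 had 5261 (Psmb5 267), Gm14830 had 2797 (Psmb1 1172) and Gm14048 had 1227 (Psmd11 743).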

How the results depend on the processing

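The sign of the members' median was kept in 24 of 24 alternatives for HE AGM over HE YSA (-0.46 to -0.11) and over HE YSP (-0.56 to -0.21), and for c4 over c3, p1 over a2 and p2 over b3. It was kept in 23 for HE YSP over HE YSA, b3 over b2 and p2 over p1, in 22 for c5 over c4 and in 13 for a2 over a1. The causes of the shifts below were not tested. For HE AGM over HE YSA the median was -0.11 with DESeq2 poscounts, -0.45 with totals without ribosomal, pseudogene and mitochondrial counts, and -0.46 on protein_coding transcripts. For HE AGM over HE YSP it was -0.38 with a log-scale limit on totals, -0.21 with poscounts, -0.51 with size factors of cluster sums, -0.56 with the reduced totals, -0.50 on protein_coding transcripts, -0.50 in run 1, -0.39 in cells of 30000 to 60000 counts, -0.49 when thinned, -0.49 with look-alikes, -0.38 centred on length and -0.28 with YS cells of E10.5 only. HE YSP over HE YSA gave 0.051 at 200 counts, 0.15 in run 1, 0.030 in cells of 30000 to 60000 counts and -0.083 at E10.5. For c4 over c3 it was 0.20 with poscounts, with cluster size factors and when thinned, and 0.038 in cells of 30000 to 60000 counts, 0.062 without run 3 and 0.078 in run 2. For a2 over a1 it was 0.16 on protein_coding transcripts, 0.14 in run 2, 0.14 in run 3 and -0.021 to 0.19 leaving out a run. For b3 over b2 it was 0.38 in run 1 and -0.0019 in run 3, for c5 over c4 -0.25 in run 3 (0.0055 with poscounts), for p1 over a2 0.16 in run 3 and 0.14 in cells of 30000 to 60000 counts, and for p2 over b3 0.29 in run 2, 0.43 at E10.5, 0.036 centred on length, 0.052 in run 1 and 0.067 with the log-scale limit. For p2 over p1 it was 0.023 with the log-scale limit, 0.033 with poscounts, 0.063 with cluster size factors, 0.034 on protein_coding transcripts, 0.064 at 10 and 0.028 at 200 counts, 0.037 in run 1, 0.032 in run 3, 0.035 in cells of 30000 to 60000 counts, 0.061 when thinned, 0.12 with look-alikes, -0.016 centred on length, 0.0097 at E10.5 and 0.024 to 0.079 leaving out a run.

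The inducible share on protein_coding transcripts was 1.01% in c3, 1.12% in c4, 6.08% in c5, 2.80% in a2, 4.46% in b3, 5.87% in p1 and 5.02% in p2. With look-alikes it was 1.87%, 3.63%, 10.2%, 2.04%, 3.21%, 4.87% and 6.08% in these clusters. Run 1 alone gave 3.12% in c4, 18.6% in c5, 0.496% in a1, 11.6% in b2, 7.998% in p1 and 21.2% in p2, and run 2 alone gave 5.41% in c3 and 12.9% in b3. In c5 it was 18.7% from deposited TPM and when thinned, and 16.9% in cells of 30000 to 60000 counts. Over the 10 comparisons there were 19 calls of a member past 2-fold, some members more than once, against 46 at 10 counts, 7 at 200 counts, 31 in run 1, 35 in run 3 and 79 at 1.5-fold. For transcript shares 35 calls became 54 at 100 counts, 23 at 400 counts, 9 at a difference of 0.2 and 2 in cells of 30000 to 60000 counts, where fewer genes are measured. The look-alike sums and the removal of Psmc3ip and Psme3ip1 were chosen after seeing the data. No paired analysis was possible because no test was made and the cells' numbers only name them. Depth limits Psmb8, Psmb9, Psma8 and Psmd9, which rest on few counts.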
